A study of Mus musculus with 9 samples.

Results

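Circular RNAs (circRNAs) of the liver were compared between mice fed a high fat diet and mice fed control chow. The comparison used 6 of the 9 arrays of the study, 3 for each diet, and all 30534 circRNA probes on the array, 1 for each circRNA. All mice were male C57BL/6J, an inbred laboratory strain, entered the study at 3 weeks of age and were 20 weeks old when the liver was taken. Control mice ate normal chow for 17 weeks, and the labels list no gavage for them. Mice of the high fat diet group were given chow with 45% of its energy as fat for the same 17 weeks and were gavaged with saline vehicle during the last 5 weeks, so diet and gavage cannot be told apart here. Another group on the same diet was gavaged with 3 mg/kg/day of metformin, a glucose-lowering drug. Its 3 arrays enter below only through a shared estimate of the spread and as levels given beside the others. Each array carried RNA pooled from 4 mice, so the p-values measure the spread between pools.

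A circRNA forms when the splicing machinery joins the end of an exon back to the start of the same or an earlier exon, a step called back-splicing. The product is a closed loop with no free ends, which makes it resistant to exonucleases. One gene can give several circles that share exons and differ in where they are joined. Liver hepatocytes take up, make, burn and export fat, and a diet rich in fat leads to fat storage in the mouse liver, weight gain and insulin resistance.

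Before labelling with the dye Cy3, 5 µg of RNA from 15 mg of liver was digested for 30 minutes with RNase R, an exonuclease that removes linear RNA. Each circRNA probe has a partner probe on the array that carries the same name with the ending neg. The sources used here do not say what the partner binds, so its values are given beside those of the circle as a paired reading. Of the circRNA probes, 14043 are named by chromosome, both ends and span in the mouse genome build mm9, and circles with overlapping spans fell into 7858 loci. The names do not give the strand. The files pair no probe with a host gene, and the gene table at hand is of another build, so circles are identified by position or by their name on the array. For the same reason the liver label could not be set against marker genes of hepatocytes or of other liver cells.

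A level below is the log2 processed signal of a probe minus the 75th percentile of its array, so that 0 lies at that percentile and a step of 1 is a doubling of signal. A difference is the level on the high fat diet minus the level on chow. The scanner software marked 85.3% to 87.0% of the circRNA probes as well above background on the control arrays and 86.3%, 78.9% and 83.1% on high fat diet replicates 1, 2 and 3. None of these probes reached saturation. Tests were run where a probe cleared that mark on each of the 3 arrays of either diet, which kept 25543 circRNAs (83.7%). In bulk liver RNA, fewer cells of a type and less of a circle per cell cannot be told apart.

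Most circRNAs had close to the same level on both diets. The difference was under 0.1 in size for 38.8% of the tested circRNAs and under 0.5 for 95.8%. A difference of 1 or more was measured for 22 circRNAs with higher and 78 with lower levels on the high fat diet. No single circRNA passed the threshold of an adjusted p of 0.05 (limma with Benjamini-Hochberg adjustment, 0% of 25543, smallest adjusted p = 0.0866). Unadjusted, p was under 0.05 for 1858 circRNAs (7.27%), of which 526 were higher (2.06%) and 1332 lower (5.21%) on the high fat diet. With other tools or settings between 0 and 24 circRNAs were called.

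The balance between higher and lower levels depended on background correction and on how the arrays were scaled. With the 75th percentile, 62.1% of the tested circRNAs had a lower level on the high fat diet and the median difference was -0.06. With normexp background correction and the 75th percentile the share was 61.2% and the median -0.04. With quantile normalization alone they were 56.9% and -0.03. With normexp background correction and quantile normalization the share was 51.4% and the median -0.01. Of the circRNAs at an unadjusted p under 0.05, 28.3% were higher on the high fat diet with the 75th percentile, 41.5% with the percentile taken over probes well above background on all 9 arrays and 50.1% with normexp and quantile normalization. The overall lean towards lower levels is therefore given only for the scaling used.

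**Figure D1:**
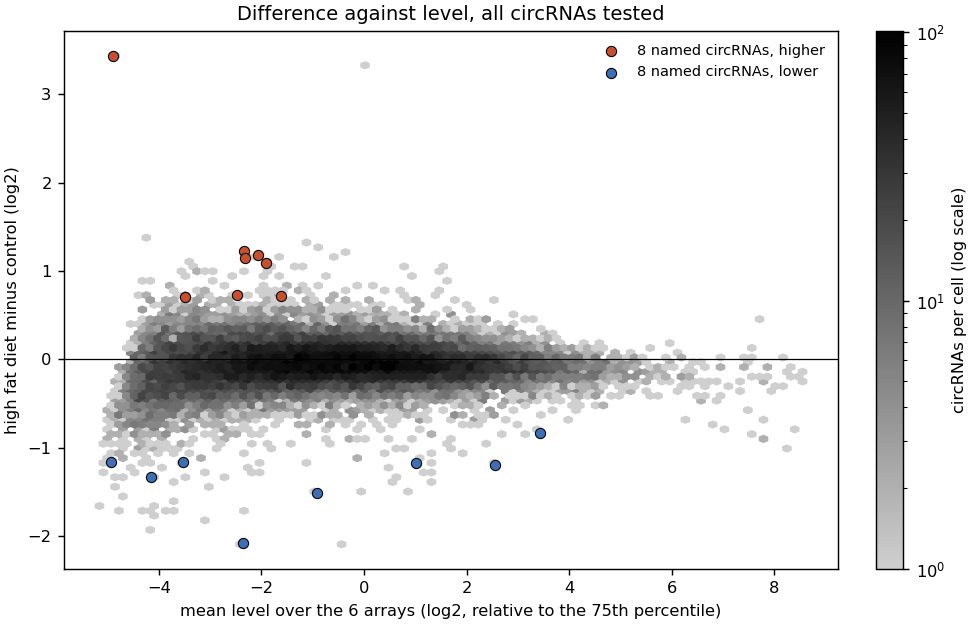
Difference in level between high fat diet and control (log2, vertical) against the mean level over the 6 arrays (log2 relative to the 75th percentile of the array, horizontal) for the 25543 tested circRNAs, with shading for the number of circRNAs per cell. The named circRNAs of both directions are drawn as coloured points; most of the cloud lies within 0.5 of no difference and is widest among dim probes.

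Taken by locus, 1 stretch of chromosome 19 was lower on the high fat diet. The locus at chr19:43579012-43590352 holds 3 circles, which overlap or share an end. Its mean level was 2.05, 2.06 and 2.04 on the control arrays and 1.19, 1.06 and 0.85 on the high fat diet arrays. The control arrays lay within a narrow range, and every high fat diet array was below all of them. The locus differed by -1.01 ± 0.149 (SE, n = 3 arrays per group), a 2.02-fold lower signal, with an adjusted p of 0.0207 in limma. It was the only called locus among the 1053 with 3 or more tested circRNAs (0.095%), which together hold 4914 circRNAs.

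Each of the 3 circles of this locus had the same pattern. The circle chr19:43579012-43582483, the best separated of the 3, had levels of 3.86, 3.85 and 3.85 on the control arrays and 3.18, 2.96 and 2.91 on the high fat diet arrays, a difference of -0.84 ± 0.132 (SE). Its neighbour chr19:43579012-43579416, which shares an end with it and spans 404 bases, had 1.1, 1.13 and 1.16 against 0.17, -0.13 and -0.27, a difference of -1.21 ± 0.258. The circle chr19:43581812-43590352 had 1.18, 1.18 and 1.1 against 0.22, 0.34 and -0.09, a difference of -0.997 ± 0.165. In none of the 3 did the diets overlap, where 8.76% of all tested circRNAs were lower without overlap. The locus stands here because of its p, which favours this. One by one the 3 circles missed the threshold over all circRNAs (limma, adjusted p = 0.172, 0.283 and 0.179).

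The partner probes at this locus were lower by a similar size. The partner of chr19:43579012-43582483 stood at 0.87, 0.62 and 0.82 on the control arrays and at 0.16, -0.23 and -0.14 on the high fat diet arrays. The log2 ratio of circle to partner differed by 0.00 ± 0.113 (SE) for this circle, by -0.32 ± 0.291 for chr19:43579012-43579416 and by -0.11 ± 0.119 for chr19:43581812-43590352 (limma, adjusted p from 0.960 to 0.999). At this locus, therefore, no difference of the circle reading apart from the paired reading passed the threshold, and the largest, -0.32, was about the size of its error.

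The call of the chromosome 19 locus was lost when any of 4 arrays was left out. Without control replicate 1 or 2, the locus differed by -1.01 in both cases but missed the threshold (limma, adjusted p = 0.127 and 0.135), as it did without high fat diet replicate 2 (-1.03, adjusted p = 0.0745) and replicate 3 (-0.92, adjusted p = 0.140). All 3 control arrays and high fat diet replicate 1 lay in 1 column of the slide and high fat diet replicates 2 and 3 in the other. With the column as a covariate the difference was -1.09 (adjusted p = 0.0960), and within the first column, which has 1 high fat diet array, it was -0.86. The locus was called in 12 of the 20 alternatives, with adjusted p over all of them from 0.00375 to 0.378. The highest came with the authors' deposited values, at -0.58. Those values have a floor, and the sources used here do not say how they were made, so they may be another quantity. On the 3 metformin arrays the locus stood at 1.80, 1.40 and 1.13, values that lie below every control array; that comparison shares the control arrays.

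Of the 1053 loci, 620 had a lower and 433 a higher mean level on the high fat diet. All circles were lower in 243 loci (23.1%) and all were higher in 132 (12.5%). The diets did not overlap in the mean level of 100 loci that were lower (9.50%) and 52 that were higher (4.94%). Every tested circle was lower without overlap in 8 loci and higher without overlap in 4. The loci described below were chosen by p, which favours diets that do not overlap. At an unadjusted p under 0.05 stood 101 loci (9.59%), 65 lower (6.17%) and 36 higher (3.42%). After normexp and quantile normalization they were 61 higher and 48 lower. Without control replicate 1 there were 59, and without control replicate 3 there were 41 higher and 35 lower.

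**Figure D2:**
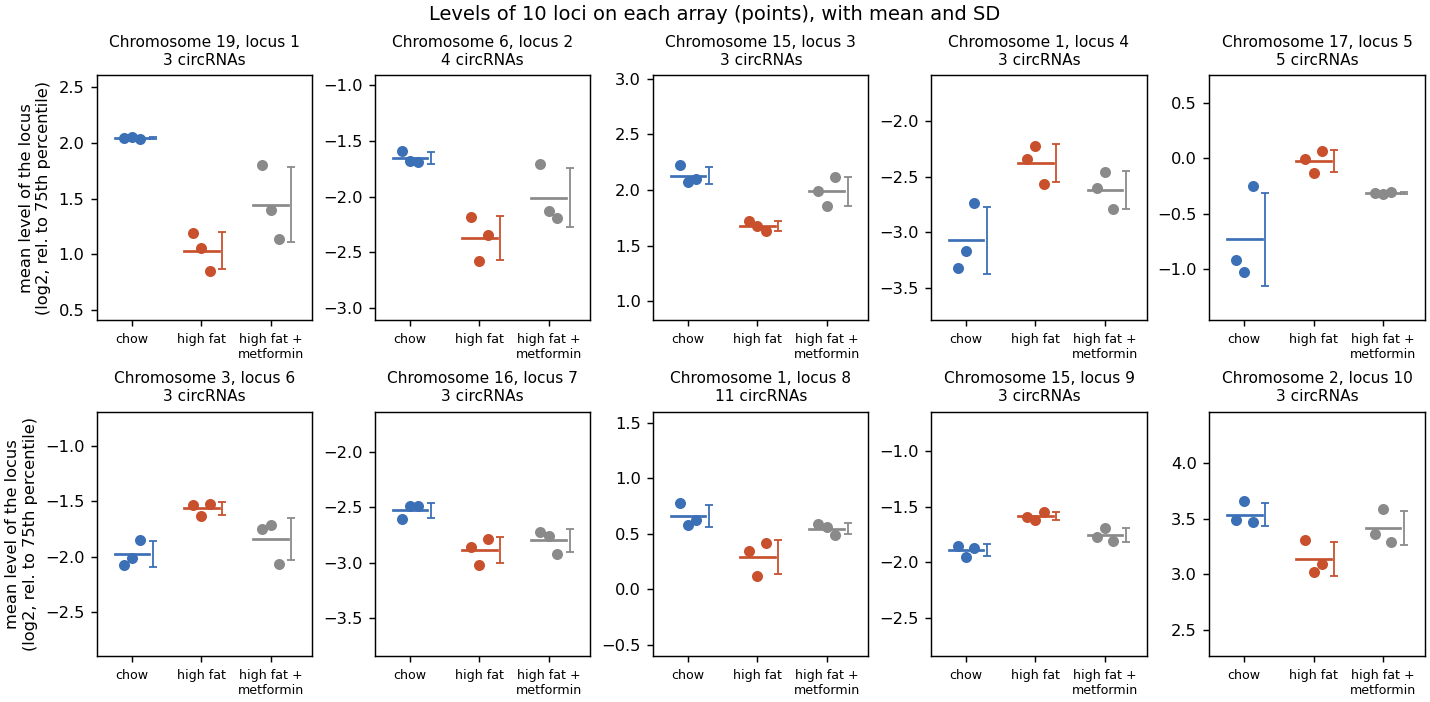
Mean level of the circRNAs of each of the 10 loci with the smallest p (log2 relative to the 75th percentile of the array) on every array of the control, high fat diet and metformin groups. Points are arrays and bars are the mean with the SD (n = 3); at the chromosome 19 locus the control arrays lie at 2.04 to 2.06 and the high fat diet arrays at 0.85 to 1.19.

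The locus with the second smallest p, at chr6:116223591-116238186, holds 4 circles. Its mean level was -1.59, -1.68 and -1.69 on the control arrays and -2.19, -2.58 and -2.35 on the high fat diet arrays, with no overlap. It differed by -0.72 ± 0.138 (SE), which missed the threshold (limma, adjusted p = 0.116), and by -0.47 with normexp and quantile normalization. All 4 circles had non-overlapping diets, where 8.76% of all tested circRNAs were lower without overlap, and the locus was chosen by its p. Their differences ran from -0.56 to -0.90. The circle chr6:116235872-116238186 had the largest of them, with 0.42, -0.11 and 0.34 on control arrays and -0.47, -0.98 and -0.60 on high fat diet arrays.

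At this chromosome 6 locus the partner probes differed by less than the circles. Of the 4 partners 3 were tested, and they differed by -0.23 ± 0.226 (SE), -0.39 ± 0.202 and -0.39 ± 0.238, while the partner of chr6:116223591-116235939 was not well above background. The partner of chr6:116235872-116238186 stood at -3.04, -3.21 and -3.08 on control arrays and at -3.09, -4.18 and -3.23 on high fat diet arrays, so that 2 of the high fat diet arrays lay close to the controls. The log2 ratio of circle to partner differed by -0.51 ± 0.194 for this circle and by -0.33 ± 0.191 and -0.42 ± 0.157 for the other tested pairs, none past the threshold (limma, adjusted p = 0.852, 0.893 and 0.852). Within the first slide column the locus differed by -0.53. The metformin arrays stood at -1.70, -2.13 and -2.19.

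Lower levels were also measured at the locus chr15:41629020-41652124, which holds 3 circles that share their first position. Its mean level was 2.22, 2.07 and 2.10 on control arrays and 1.72, 1.67 and 1.63 on high fat diet arrays, a difference of -0.46 ± 0.0957 (SE; limma, adjusted p = 0.165). The diets did not overlap, for the locus or for any of its circles. Over all tested circRNAs 8.76% were lower without overlap, and the locus was chosen by its p. The 3 circles differed unequally, by -0.55 for the 4221-base span, -0.60 for the 16252-base span and -0.21 for the 23104-base span, and their partners by -0.40, -0.26 and -0.31. The metformin arrays, at 1.99, 1.85 and 2.12, lay above all 3 high fat diet arrays.

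Among the loci with the smallest p, chr1:167263420-167359446 was the richest, with 11 circles. Its mean level was 0.77, 0.58 and 0.62 on control arrays and 0.34, 0.12 and 0.42 on high fat diet arrays, with no overlap and a difference of -0.37 ± 0.102 (SE; limma, adjusted p = 0.335). All 11 circles were lower on the high fat diet, 7 of them without overlap, with differences from -0.09 to -0.52; over all tested circRNAs 62.1% were lower and 8.76% lower without overlap, and the locus was chosen by its p. The largest was that of chr1:167318789-167322363, at 0.53, 0.57 and 0.68 on control arrays and 0.02, 0.03 and 0.19 on high fat diet arrays. The smallest was that of chr1:167322270-167350355, at 2.31, 1.88 and 1.83 against 1.90, 1.73 and 2.11, where the diets overlapped. Circles of 1 locus share sequence and are not independent measurements, so the 11 count as 1 locus.

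The remaining loci with lower levels both hold 3 circles. At chr2:58607769-58632559 the levels were 3.49, 3.66 and 3.47 on control arrays and 3.31, 3.02 and 3.10 on high fat diet arrays, a difference of -0.40 ± 0.113 (SE). One of its circles, chr2:58623832-58632559, had an unflagged value on only 1 control array, 4.53, against 4.06, 3.93 and 3.91 on the high fat diet. At chr16:15831364-15839317 the levels were -2.61, -2.49 and -2.49 against -2.86, -3.02 and -2.79, a difference of -0.36 ± 0.0976. The diets did not overlap in the mean level of either locus, where 9.50% of all loci were lower without overlap. Both were chosen by p and missed the threshold (limma, adjusted p = 0.335 for both). At the chromosome 2 locus 1 of the 3 circles had non-overlapping diets. The diets overlapped in the circle that spans the whole locus. Its levels were 3.08, 3.54 and 3.25 on control arrays and 3.09, 2.64 and 2.76 on high fat diet arrays. The circle chr2:58623832-58632559 has 1 control value, so its overlap could not be judged. At the chromosome 16 locus 2 of the 3 circles had overlapping diets, and the locus differed by -0.24 with normexp and 75th percentile scaling. With the deposited values the loci differed by -0.85 and -0.69.

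Of the 10 loci, 4 had higher levels on the high fat diet, and none passed the threshold. At chr1:11171936-11198736, with 3 circles, levels were -3.32, -3.17 and -2.74 on control arrays and -2.34, -2.22 and -2.56 on high fat diet arrays, a difference of 0.70 ± 0.152 (SE; limma, adjusted p = 0.165). The diets did not overlap in any of its circles, where 3.48% of all tested circRNAs were higher without overlap, and the locus was chosen by its p. Control replicate 3 lay nearest to the high fat diet arrays. Without that array the locus differed by 0.87 and was called (limma, adjusted p = 0.0325), the only call in 19 alternatives. Without control replicate 1 it differed by 0.58 and was not called (limma, adjusted p = 0.743). With normexp and 75th percentile scaling it differed by 0.45. Its circle of 107 bases, chr1:11172008-11172115, stood at -0.98, -1.23 and -0.76 on control arrays and at -0.28, -0.26 and -0.49 on high fat diet arrays. The circle chr1:11183594-11198736 was well above background on 2 of the 3 control arrays, so it entered through its high fat diet arrays alone. None of the 3 partner probes was bright enough to be tested.

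The locus at chr17:57541328-57559947 holds 6 circles, of which 5 were tested. Its mean level was -0.92, -1.02 and -0.25 on control arrays and 0.00, -0.13 and 0.07 on high fat diet arrays, a difference of 0.70 ± 0.165 (SE; limma, adjusted p = 0.233). The diets did not overlap in the mean level, where 4.94% of all loci were higher without overlap, and the locus was chosen by its p. Of the 5 tested circles 3 had non-overlapping diets. Control replicate 3 was again close to the high fat diet arrays. Without control replicate 3 the difference was 0.94 and the locus was called (limma, adjusted p = 0.00241), the only call in 21 alternatives. Over all of them its adjusted p ran from 0.00241 to 0.796, the highest being that without control replicate 1. The circle chr17:57558745-57559947 had the largest difference, 0.97 ± 0.226, with -2.21, -2.68 and -1.57 on control arrays and -1.32, -1.21 and -1.03 on high fat diet arrays. Partner probes at the locus differed by 0.71 on average, and the metformin arrays, at -0.32, -0.32 and -0.30, lay between the high fat diet arrays and all control arrays but replicate 3.

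The other 2 loci with higher levels had smaller differences. At chr3:104269410-104285858, with 3 circles, the levels were -2.07, -2.01 and -1.85 on control arrays and -1.53, -1.63 and -1.52 on high fat diet arrays, a difference of 0.41 ± 0.111 (SE). At chr15:95724844-95762274, also with 3 circles, they were -1.85, -1.95 and -1.87 against -1.60, -1.62 and -1.55, a difference of 0.30 ± 0.0843. Both missed the threshold (limma, adjusted p = 0.335). The diets overlapped in the mean level of neither, where 4.94% of all loci were higher without overlap, and both were chosen by p. At the chromosome 15 locus, chr15:95742736-95762274 differed by only 0.05 ± 0.143, so its 2 other circles carried the difference. That locus differed by 0.15 with normexp and 75th percentile scaling and by 0.05 with the deposited values, and the chromosome 3 locus by 0.81 with the deposited values.

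**Figure D3:**
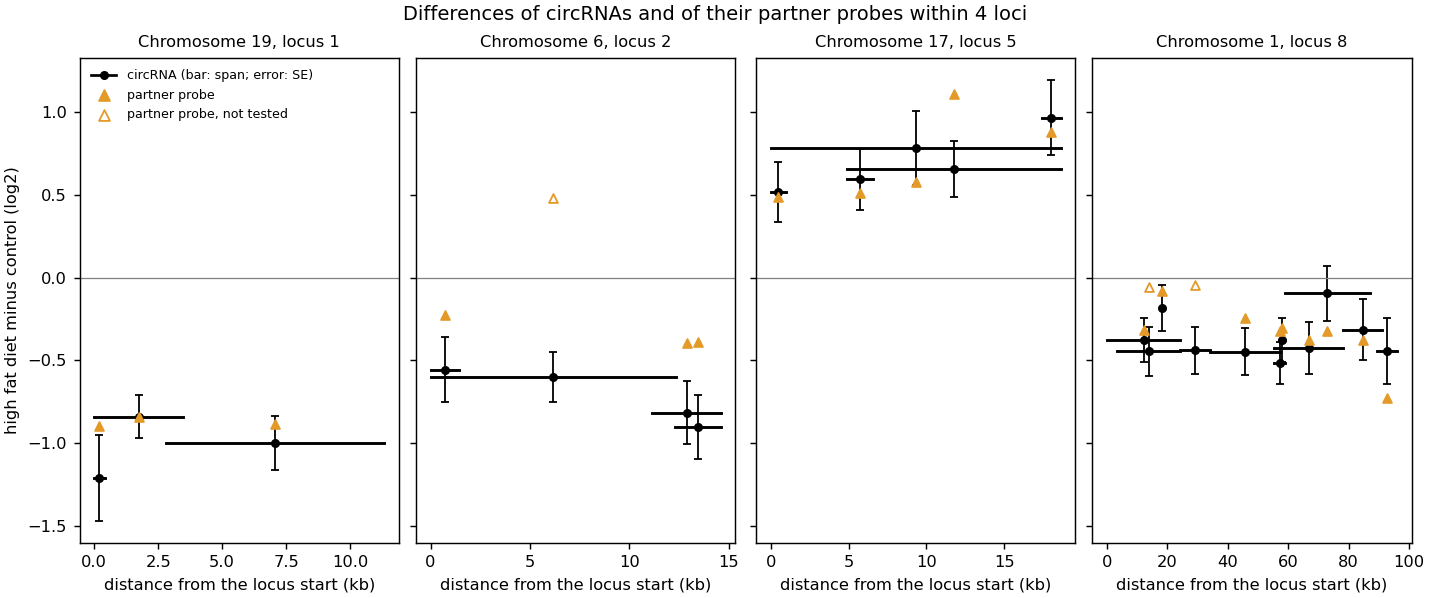
Difference between high fat diet and control (log2, vertical) for each tested circRNA of 4 of the 10 loci, on chromosomes 19, 6, 17 and 1, drawn at its place in the locus as distance from the locus start (kb, horizontal). Bars show the span of a circle with its SE, filled triangles are the tested partner probes and open triangles those not tested; at the chromosome 6 locus the circles lie from -0.56 to -0.90 and the tested partners from -0.23 to -0.39.

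Single circRNAs are named by the smallest p, 8 for each direction and at most 1 for a locus. The smallest p of all belonged to mmu_circ_0015831, a circle with higher levels on the high fat diet. It stood at -2.75, -2.84 and -2.38 on control arrays and at -1.52, -1.40 and -1.51 on high fat diet arrays, a difference of 1.18 ± 0.144 (SE; limma, adjusted p = 0.0866). The high fat diet arrays lay close together and above all controls. Its partner differed by 0.83 ± 0.171, and on the metformin arrays the circle was at -2.33 ± 0.0253 (SD, n = 3). It was called in 5 of 18 alternatives, among them trend and robust fitting, with adjusted p over all of them from 0.00629 to 0.424.

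The circRNA chr13:58939157-58962916 was measured above background on the high fat diet only. It was measured at -6.75, -7.06 and -6.04 on control arrays, not well above background on any of them, and at -2.10, -3.38 and -4.05 on high fat diet arrays, where it cleared the background each time. Set against the dimmest signal that counts as well above background on each array, it was 3.37-fold higher on the high fat diet. Brighter probes could also miss that mark, so this is not a strict minimum. The fitted difference of 3.44 ± 0.572 (SE) rests on control signals below background and was 1.13 with normexp and 75th percentile scaling. It was the only circRNA of that kind, and its high fat diet values were spread widely, with replicate 1 highest. Its p was not small enough to pass (limma, adjusted p = 0.179). With the slide column as a covariate it differed by 4.67 and was called (limma, adjusted p = 0.00105). That fit rests on the same control signals below background. The circle entered the tests through its high fat diet arrays alone, so the call is not counted as support. Its partner, at -3.42, -2.90 and -3.72 on control arrays and -1.78, -3.29 and -2.19 on high fat diet arrays, had overlapping diets.

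The next circles with higher levels had differences near 1. For chr12:104384512-104387291 the levels were -2.93, -3.30 and -2.62 on control arrays and -1.46, -1.92 and -1.81 on high fat diet arrays. For chr3:88418429-88420576 they were -2.17, -2.65 and -2.52 against -1.49, -1.18 and -1.40, and for mmu_circ_0003685 they were -2.54, -3.03 and -3.12 against -1.54, -1.71 and -2.02. The diets did not overlap in any of the 3. They differed by 1.22 ± 0.211 (SE), 1.09 ± 0.192 and 1.14 ± 0.202 (limma, adjusted p = 0.190 for each), and their partners by 1.08, 1.13 and 0.99. The metformin arrays were at -3.07 ± 0.315 (SD, n = 3), -2.28 ± 0.348 and -2.75 ± 0.295 in the same order. With normexp and 75th percentile scaling chr12:104384512-104387291 differed by 0.81 and mmu_circ_0003685 by 0.74.

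For the next circle the partner did not differ the same way. The circle chr2:28396231-28406083 was at -3.81, -4.04 and -3.71 on control arrays and at -3.10, -3.24 and -3.09 on high fat diet arrays, a difference of 0.71 ± 0.134 (SE; limma, adjusted p = 0.238), while its partner differed by -0.17 ± 0.231. In the group means the circle was dimmer than its partner on chow (-3.85 against -3.48) and brighter on the high fat diet (-3.15 against -3.65). Their log2 ratio differed by 0.88 ± 0.207 (SE, limma, adjusted p = 0.792). The authors' deposited values have a floor, whose part was not tested. With those values this circle was called with a difference of 7.93 (limma, adjusted p = 0.00124). Its difference was 0.38 after normexp and 75th percentile scaling. The circle chr6:113054929-113078535 was at -1.98, -1.996 and -1.97 against -1.29, -1.08 and -1.43, a difference of 0.71 ± 0.149 (adjusted p = 0.283), and its partner, at -6.85 or below on control arrays, was not bright enough to be tested. The diets overlapped in neither circle. The eighth, mmu_circ_0014383, differed by 0.73 ± 0.154 (adjusted p = 0.283), and its levels ran from -2.89 to -2.80 on chow and from -2.21 to -1.95 on the high fat diet. With normexp and 75th percentile scaling the latter pair differed by 0.34 and 0.46.

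Of the 8 named circles with lower levels, mmu_circ_0003716 had the largest difference. It stood at -0.75, -2.19 and -1.02 on control arrays and at -3.46, -3.75 and -3.00 on high fat diet arrays, a difference of -2.08 ± 0.359 (SE; limma, adjusted p = 0.190). Control replicate 2 was lower than the other control arrays, and all high fat diet arrays were lower still. Its partner had -1.08, -2.63 and -1.14 against -3.75, -3.86 and -3.39, a like pattern and a difference of -2.05 ± 0.364. The circle was well above background on 2 of the 3 high fat diet arrays, and with normexp and 75th percentile scaling it differed by -1.32.

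A large difference could also come from 1 array, as in a pair of circles picked out after their values were seen. The circle mmu_circ_0008920 was at -1.67, -1.63 and -1.61 on control arrays and at 8.56, -1.96 and -1.56 on high fat diet arrays, so that its difference of 3.32 ± 2.01 (SE; limma, adjusted p = 0.769) rests on high fat diet replicate 1. The circle mmu_circ_0005717 was at 0.45, 1.28 and -0.02 against -2.38, -0.13 and -2.07, a difference of -2.10 ± 0.494 (adjusted p = 0.329) with high fat diet replicate 2 near the controls.

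A pair of further circles with lower levels had partners that differed by about as much. The levels of mmu_circ_0001100 were -0.18, -0.54 and 0.27 on control arrays and -1.34, -1.92 and -1.73 on high fat diet arrays, a difference of -1.51 ± 0.238 (SE), with -1.63 ± 0.288 for its partner. Those of mmu_circ_0007806 were 3.43, 3.04 and 2.98 against 2.08, 1.89 and 1.87, a difference of -1.20 ± 0.161, with -1.1 ± 0.172 for its partner. Neither circle had overlapping diets. Both missed the threshold (limma, adjusted p = 0.172), and both were called with trend and robust fitting and with normexp under either scaling.

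The other lower circles were chr13:62270802-62275617, mmu_circ_0015293, Fan_16_148_1250 and mmu_circ_0009727, beside chr19:43579012-43582483 above. At chr13:62270802-62275617 the levels were 1.86, 1.36 and 1.61 on control arrays and 0.67, 0.58 and 0.05 on high fat diet arrays, a difference of -1.18 ± 0.197 (SE; limma, adjusted p = 0.179). With the authors' deposited values the sign of this circle turned, to 3.19. Its partner was nearly as bright, with means of 1.555 on chow and 0.21 on the high fat diet, beside 1.61 and 0.43 for the circle. For mmu_circ_0015293 the levels were -2.89, -2.92 and -3.03 against -4.001, -4.23 and -4.11, a difference of -1.17 ± 0.178 (adjusted p = 0.172), with a smaller one of -0.52 ± 0.177 for its partner. It was well above background on 2 of the 3 high fat diet arrays, and with normexp and 75th percentile scaling it differed by -0.66. The dim circle mmu_circ_0009727 was at -4.40, -4.15 and -4.51 against -5.30, -5.97 and -5.28, a difference of -1.17 ± 0.188 (adjusted p = 0.179). No high fat diet array had it well above background. Set against the dimmest signal so marked, it was 1.16-fold lower, which is not a strict minimum. Its fitted difference ran from -3.01 to -0.29 over the alternatives. In all 16 named circles the diets did not overlap, where 890 tested circRNAs were higher (3.48%) and 2237 lower (8.76%) without overlap. The 16 were chosen by p, so this describes the choice.

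**Figure D4:**
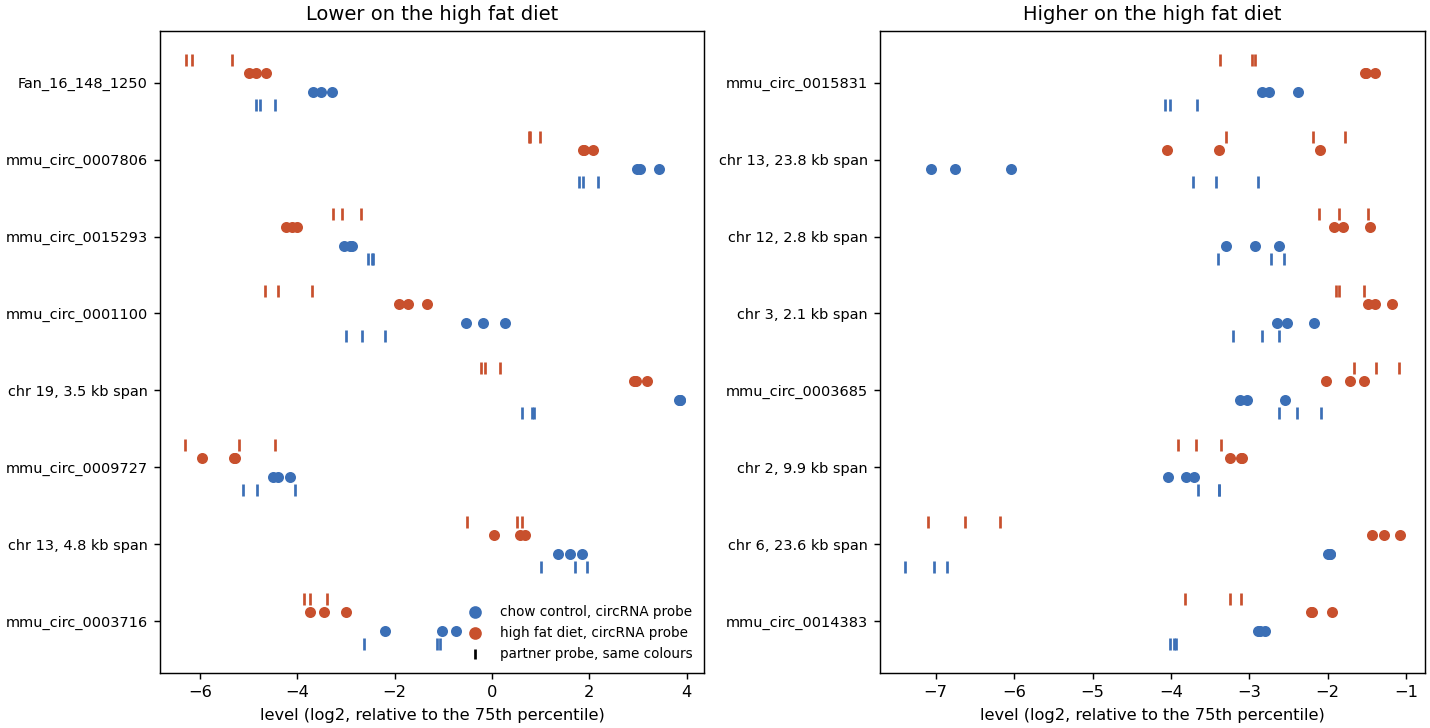
Level (log2 relative to the 75th percentile of the array) of the 16 named circRNAs on each control and high fat diet array, with ticks for the partner probe on the same array. In every circRNA shown the points of the diets are apart; for mmu_circ_0003716 the partner ticks lie near the points, at -1.08, -2.63 and -1.14 on chow and -3.75, -3.86 and -3.39 on the high fat diet.

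Whether a circle's reading moved apart from its partner's was asked with their log2 ratio, in which a constant shift of an array cancels. Quantile normalization is no such shift. None of 20868 pairs passed the threshold (limma, 0%, smallest adjusted p = 0.379), and 1216 stood at an unadjusted p under 0.05 (5.83%), 611 higher (2.93%) and 605 lower (2.90%). Quantile normalization gave 549 higher and 647 lower. The partner probes alone gave no call among 21737 (0%, smallest adjusted p = 0.173) and 1561 at an unadjusted p under 0.05 (7.18%), 478 higher (2.20%) and 1083 lower (4.98%). Without high fat diet replicate 1 the 1561 became 2353, and with normexp and quantile normalization 853 were higher and 759 lower.

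Among pairs whose circle probe was the brighter, the smallest p for the ratio belonged to mmu_circ_0011833. The circle itself was near the same level on both diets, at -1.43, -1.45 and -1.13 on control arrays and -1.51, -1.55 and -1.49 on high fat diet arrays. Its partner was at -4.16, -4.15 and -3.88 against -3.43, -3.62 and -3.42, so that a higher partner went with a lower ratio on the high fat diet. The ratio differed by -0.75 ± 0.0952 (SE; limma, adjusted p = 0.379). The same held for chr9:72155758-72171961, mmu_circ_0008899 and Fan_16_148_2294, whose ratios differed by -0.80, -0.83 and -1.09 while the circles differed by -0.08, -0.05 and -0.29. For chr11:79828645-79839456 the ratio differed by -0.57 ± 0.0956, with -0.30 for the circle and 0.27 for the partner. With normexp and 75th percentile scaling the ratios of mmu_circ_0011833, chr9:72155758-72171961, Fan_16_148_2294 and chr11:79828645-79839456 differed by less, -0.36, -0.37, -0.63 and -0.37.

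On the other side, mmu_circ_0008082 had a higher ratio with a circle and a partner that differed in opposite directions. The circle was at -3.83, -4.16 and -4.33 on control arrays and at -3.39, -3.58 and -3.49 on high fat diet arrays, and the partner at -4.14, -4.12 and -4.30 against -4.41, -5.01 and -4.54. Neither pair of groups overlapped, and the ratio differed by 1.08 ± 0.171 (SE; limma, adjusted p = 0.780). For mmu_circ_0009303, mmu_circ_0015136, mmu_circ_0015722 and mmu_circ_0010709 the ratios differed by 0.67, 0.86, 0.74 and 0.84. In those 4 the partners differed by -0.49, -0.82, -1.08 and -0.95, and the circle differed by between -0.34 and 0.18. With normexp and quantile normalization the ratio of mmu_circ_0008082 differed by 0.41, that of mmu_circ_0015136 by 0.26 and that of mmu_circ_0010709 by 0.17.

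The 5 probes with the highest signal in controls, all with names of the mmu_circ kind, divided into a pair and a trio. They were chosen by their control level, which favours a lower level on the high fat diet. The probe of mmu_circ_0015494 was at 8.73, 8.74 and 8.69 on control arrays and at 7.36, 7.92 and 7.94 on high fat diet arrays, a difference of -0.98 ± 0.179 (SE; limma, adjusted p = 0.223). That of mmu_circ_0015495 was at 8.80, 8.80 and 8.91 against 7.76, 8.003 and 8.38, a difference of -0.79 ± 0.210 (adjusted p = 0.404). In both the diets did not overlap, where 8.76% of all tested circRNAs were lower without overlap, and high fat diet replicate 1 was the lowest array. Their partners differed by -0.75 ± 0.243 and -0.91 ± 0.219. With normexp and quantile normalization mmu_circ_0015495 differed by -0.48 and with the authors' deposited values by 0.03, and mmu_circ_0015494 kept its sign in all alternatives and was called in 2 of 18.

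The probes of mmu_circ_0004203, mmu_circ_0009091 and mmu_circ_0014067 differed by -0.27 ± 0.168 (SE), -0.21 ± 0.146 and -0.16 ± 0.158, and none passed the threshold. In mmu_circ_0004203 the diets did not overlap, and in the others they did. High fat diet replicate 2 gave the lowest value of each, 8.18, 8.15 and 8.17, while the other high fat diet arrays lay between 8.43 and 8.68. In all 3 the direction turned under quantile normalization, to 0.05, 0.10 and 0.23, and under normexp with quantile normalization.

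Some circRNAs were well above background on every array of one diet and on none of the other. In 46 circRNAs this was so for control against high fat diet, and in 1, the chromosome 13 circle above, the other way round. The 46 were all dim, with control means from -4.74 to -3.49, and 24 of them had non-overlapping diets, which the way they were chosen favours; 8.76% of all tested circRNAs were lower without overlap. A bound of the fold, set against the dimmest signal marked well above background, was above 1 for 40 of them, with a median of 1.16. Brighter probes could also miss that mark, so the bound is not a strict minimum. The lowest level that counted as well above background was -4.71, -4.88 and -5.20 on the control arrays and -5.13, -4.04 and -4.53 on high fat diet replicates 1, 2 and 3, so a dim probe had to be brighter on high fat diet replicates 2 and 3 to be counted. Without high fat diet replicate 1 the 46 became 530, and without control replicate 1 or 2 they became 114 and 141, so that the number follows single arrays. The 1 became 7 without high fat diet replicate 2, 3 without replicate 3 and 2 without control replicate 3. The part of these limits in it was not tested.

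The largest bounds among the 46 were those of Fan_16_148_1250, chr11:33164636-33183990, chr6:58806587-58813043, mmu-circRNA789 and mmu_circ_0009365. By this bound the group mean signal was 2.04-fold, 1.78-fold, 1.54-fold, 1.51-fold and 1.495-fold lower on the high fat diet. Fan_16_148_1250 was at -3.28, -3.68 and -3.51 on control arrays and at -4.99, -4.84 and -4.64 on high fat diet arrays (limma, adjusted p = 0.172). The circle chr11:33164636-33183990 was at -3.41, -3.70 and -3.56 against -4.74, -4.10 and -4.38 (adjusted p = 0.283). In both the diets were apart. They were apart in chr6:58806587-58813043 too (adjusted p = 0.694). In mmu-circRNA789 the control arrays were at -2.31, -4.49 and -5.12 and the high fat diet arrays at -5.68, -5.91 and -4.93 (adjusted p = 0.656), so the diets overlapped and control replicate 1 set the bound. The diets also overlapped in mmu_circ_0009365, at -3.905, -3.815 and -4.24 against -5.47, -4.075 and -5.56 (adjusted p = 0.500). There high fat diet replicate 2 lay just under the lowest level well above background on that array, -4.04. With normexp and quantile normalization these 5 circles differed by between -0.58 and -0.26.

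The differences were alike across kinds of circle. By span, the median difference was -0.07 for the 1133 tested circles under 1 kb, -0.04 for the 5596 of 1 to 10 kb and -0.04 for the 4799 of 10 to 50 kb, beside -0.06 over all tested circRNAs. No position-named circle spanned 50 kb or more. By chromosome the medians ran from -0.06 on chromosome 7 to -0.03 on the X chromosome, apart from 0.04 over the 15 tested circles of the Y chromosome. Circles that share an end with another had a median of -0.04 (5508 tested), and those that share none -0.06 (6020 tested). With normexp and quantile normalization the medians by span were -0.01, 0.01 and 0.01, so that for circles of 1 kb and over the direction turned.

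Level made the clearest division, and it too depended on scaling. When the tested circRNAs were divided into 5 classes of like size by mean level, 66.1% of the dimmest class and 69.9% of the brightest were lower on the high fat diet, against 56.7% of the middle class. The median differences were -0.11, -0.08 and -0.03 in that order. With normexp and quantile normalization the shares were 53.1%, 52.2% and 51.0%. At an unadjusted p under 0.05 stood 12.1% of the dimmest class and 5.91% of the brightest, beside 7.27% over all. A dim probe was tested where either diet cleared the background mark. That mark was higher on high fat diet replicates 2 and 3 (-4.04 and -4.53) than on the control arrays (-4.71, -4.88 and -5.20). The part of this filter in the dimmest class was not tested. The median standard error of a difference was 0.208 in the dimmest and 0.154 in the brightest class, so dim circles were measured with less precision.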

How the data were processed

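Spots of 1-colour arrays were read by Agilent Feature Extraction 11.5.1.1 on a grid built on mm9, per the file headers; the submitters' processing notes name version 10.7. Per the file headers, background was subtracted from the deposited processed intensity which was also detrended, with no scaling between arrays. The authors also deposited log2 values, which have a floor. The sources used here do not say how they were made, and they served as an alternative only. Whether they follow the signal of circle minus partner was not tested.

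The log2 of processed intensity was taken and reduced by its 75th percentile over the non-control probes of the array. Spots with outlier flags were left out and spots of a probe averaged. All 9 arrays were fitted by lmFit and eBayes of limma 3.58.1 under R 4.3.3, read for high fat diet minus control, and adjusted by the Benjamini-Hochberg method over all features of a fit, with a threshold of 0.05. The fits were tested on simulated data. Levels of a locus are means of its tested probes, centred per probe so that a flagged spot does not shift them. A bound of the fold sets the mean of the brighter group against the dimmer group's mean of, per array, the probe's own level or the lowest level well above background, whichever is higher. Probes above that lowest level could still miss the mark, so the bound is not a strict minimum.

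Named were the 8 circRNAs per direction with the smallest p, unflagged on all 6 arrays and at most 1 per locus, every called circRNA, the 10 loci with the smallest p, the 5 per direction with the smallest p for the ratio among pairs with the brighter circle, the 5 with the highest control level, and up to 5 per direction measured in 1 diet only, by the largest bound. Members and lists were chosen with earlier results of these data known, and the minimum of 3 circRNAs per locus follows them. Lists by host gene and markers of cell types were not used, since no table in mm9 pairs probes with genes. Alternatives were normexp (offset 50; on the deposited median intensities of spot and background), quantile normalization, other percentiles and filters, trend and robust fitting, fewer arrays, covariates and blocks, other rules for loci, and the authors' deposited values. Precision is limited by the number of arrays.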

Additional observations from a re-analysis of the deposited data

How the results depend on the processing

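For single circRNAs, 0 calls became 24 with normexp and 75th percentile scaling, 8 with normexp and quantile normalization, 7 with trend and robust fitting, 15 with the authors' deposited values, and 1 each with the percentile over, or only the, probes well above background on all 9 arrays and with the array column as a covariate (limma); 41 circRNAs were called at least once and 11 at least 2 times, and 11 of the 16 named ones were among those called. At an unadjusted p under 0.05, leaving out 1 array gave 1279 (without control replicate 1) to 2745 circRNAs (without high fat diet replicate 1). For loci, 1 call became 0 without a filter on dim probes, with the array column and with 2 circRNAs as the minimum, and ran from 0 to 3 when 1 array was left out. No locus was called with a minimum of 5 circRNAs or with circles joined by a shared end. Those rules left the chromosome 19 locus untested, as it holds 3 circles that do not all share an end, and so do not bear on it. The chromosome 19 locus missed the threshold at -1.015 without the filter on dim probes (adjusted p = 0.124) and with a minimum of 2 circRNAs (adjusted p = 0.0720), at -1.093 with the array column and at -0.5759 (adjusted p = 0.378) with the deposited values, and ran from -1.093 to -0.9249 when 1 array was left out. Those values call another locus, chr12:105942276-105977058 (2.93, adjusted p = 0.00704). The ratio to the partner gave 1 call without the filter. Partner probes gave 21 calls with normexp and 75th percentile scaling, 4 with normexp and quantile normalization, 5 when probes had to clear background on all 9 arrays, 12 with trend and robust fitting, 1 with the array column, and 0 to 1 when 1 array was left out. The cause of these changes was not tested.

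Direction turned for chr13:62270802-62275617 (3.19), mmu_circ_0015495 (0.02675) and mmu_circ_0009365 (0.486) with the authors' deposited values, and, with normexp and quantile normalization and with quantile normalization alone, for mmu_circ_0004203 (0.003108 and 0.04986), mmu_circ_0009091 (0.1282 and 0.09734) and mmu_circ_0014067 (0.2398 and 0.2349). Same-numbered arrays of the diets did not deviate together (correlations of -0.07, 0.19 and -0.09), so the numbers were not taken as pairs; the replicate block gave 4 circRNAs and 2 loci, the second being that of chromosome 6 (adjusted p = 0.0274). Dim probes have the largest errors, and a difference that missed the threshold is not shown to be absent.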
